A study of Mus musculus with 45 samples.

Results

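The genes Homer1, Homer2 and Homer3 and the gene model Gm47088, which lies inside Homer1, were described across 9 conditions in mouse hippocampal primary neurons. These 4 genes were taken by their mouse symbols from the 54532 genes of the count table. Homer1 and Gm47088 entered with their levels in these libraries already known, so their values are given below as a description without a test. Homer2 and Homer3 entered as the remaining members of the family. The members and the gene lists below were chosen with earlier results of these data known. Their p-values and counts of calls therefore describe these data and are not independent support.

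RNA was sequenced from cultures of newborn (P0) C57BL/6N mice, grown with B27 and rat serum, and given AraC on day in vitro 3 to limit dividing cells. By the labels they were treated on day in vitro 10 or 11, and the authors' methods give day 11 for RNA-seq. The control was untreated. Bicuculline (Bic, 50 µM), a GABA type A receptor antagonist that induces action potential (AP) firing, was applied for 0.5, 1 or 2 h. In the short protocol (SP), neurons had Bic for 0.5 h and then, with Bic still present, another 0.5 h of either TTX/NMDA (30 µM NMDA added to the bath) or TTX alone. TTX stands for tetrodotoxin (1 µM), a toxin that stops AP firing. In the long protocol (LP), Bic came first for 1 h, and TTX, TTX/NMDA or TBOA was added for another 1 h. TBOA (50 µM) is a blocker of glutamate uptake that lets glutamate spill over from synapses. Each condition had 5 libraries, 1 from each of the culture preparations numbered 1, 3, 6, 7 and 8, and values per preparation are given below in this order. These cultures hold several cell types and each library reports the RNA of the whole dish.

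Homer proteins are scaffolds of the postsynaptic density. Their EVH1 domain binds proline-rich motifs in group I metabotropic glutamate receptors, inositol trisphosphate receptors and Shank proteins, and the long forms multimerise through a coiled coil and so link these partners. Homer1 also gives short forms, Homer1a and Ania-3, which neuronal activity induces, which lack the coiled coil and which act as dominant negatives of the long forms. The reads were counted per gene, so short and long forms of Homer1 cannot be told apart in the values below.

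Homer1 (ENSMUSG00000007617) spans chr13:93299635-93405129 on the plus strand of GRCm38, with 12 annotated transcripts and 11976 exonic bases. Its annotated transcripts end at different places, and Homer1-204 ends at base 93360462 of the chromosome and Homer1-205 and Homer1-206 at base 93367134, long before the last exons. Homer2 (ENSMUSG00000025813) lies at chr7:81600481-81707527 on the minus strand, with 9 transcripts and 12621 exonic bases. Homer3 (ENSMUSG00000003573) lies at chr8:70282827-70294361 on the plus strand, with 8 transcripts and 3440 exonic bases. Gm47088 (ENSMUSG00000113076) is a single-exon model at chr13:93317427-93319065. Its annotation class, TEC, is that of gene models which still await experimental support. It lies on the strand of Homer1, starts 13670 bases after the first RefSeq start of that gene, falls in an intron of all 12 Homer1 transcripts (intron 1 in 11 of them) and shares 0 bases with Homer1 exons.

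**Figure D1:**
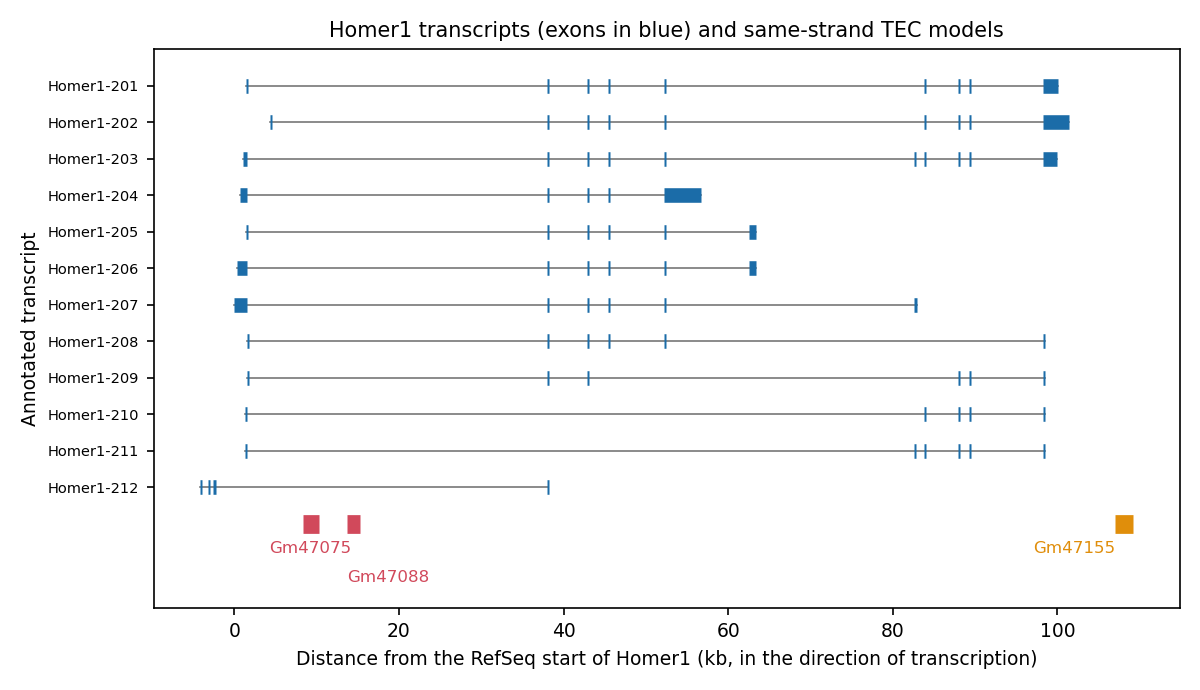
Map of Homer1 by distance from its RefSeq start (x axis, kb), with each of the 12 annotated transcripts on its own line (y axis; exons in blue, introns as grey lines). The TEC models Gm47075 and Gm47088 (red) lie in the long intron near the start, and Gm47155 (orange) lies after the last exon.

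RefSeq gave 2 start windows for Homer1. The 250 bases before the first of these starts, at chr13:93303507-93303756 on the plus strand (RefSeq sequence, GRCm38.p6), are shown because Homer1 is the member induced by AP firing. Capitals mark the letters TGACG, the core of the cAMP response element bound by CREB. The last 150 bases of Gm47088, at chr13:93318916-93319065 on the plus strand (GENCODE M21, GRCm38), are shown because the RNA was selected by its poly-A tail. Capitals mark the letters AATAAA, the usual polyadenylation signal, which were searched on the plus strand only.
Homer1 promoter: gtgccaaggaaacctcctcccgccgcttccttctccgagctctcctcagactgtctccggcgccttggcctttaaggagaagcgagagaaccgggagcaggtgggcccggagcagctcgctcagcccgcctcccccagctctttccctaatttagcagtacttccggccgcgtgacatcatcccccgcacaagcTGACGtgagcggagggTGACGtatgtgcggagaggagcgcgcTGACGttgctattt
Gm47088 end: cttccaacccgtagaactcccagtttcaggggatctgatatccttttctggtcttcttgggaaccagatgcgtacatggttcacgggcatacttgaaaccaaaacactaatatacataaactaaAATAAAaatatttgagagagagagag

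TGACG stood at 3 places in this first Homer1 window, with its first base at -56, -40 and -14 from the RefSeq start, and was not found in the second window, which lies further downstream. Searched on both strands in the 300-base windows of 32544 RefSeq promoters, 20.9% held TGACG at least once and 1.04% held it 3 or more times. The full element TGACGTCA, the AP-1 letters TGANTCA, the serum response element (CArG box) and the MEF2 site had no match in either Homer1 window. The windows of Homer2 and Homer3 held no TGACG. Gm47088 had 1 AATAAA, which started 26 bases before the annotated end, and its longest run of A was 5 bases. These matches describe letters and were not tested as binding or cleavage sites.

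Library depth, as reads counted on genes, was 11316580 to 81129276, with a median of 26239614 over the 45 libraries. Homer1 received 1121 to 48618 reads per library, Homer2 962 to 7736 and Homer3 295 to 2364, whereas Gm47088 received 0 to 84. Levels are given as counts per 1000000 reads (CPM) after TMM normalization over the 45 libraries, and fold changes come from edgeR's quasi-likelihood fit of the 2 conditions compared. The neuronal markers Rbfox3, Map2, Tubb3 and Snap25 were present in every library, with a summed level of 3190 to 4210 CPM. Markers of other cells were present too, with a summed level of 353 to 1340 CPM for 5 astrocyte markers, 44.6 to 117 CPM for 5 oligodendrocyte lineage markers and 3.79 to 8.00 CPM for 4 microglia markers.

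Homer1 was the member that rose along the Bic series. In the untreated control its level was 97.6, 105.7, 117.7, 110.7 and 113.8 CPM, a mean of 109.1 ± 7.8 (SD, n = 5). After 0.5 h of Bic it was 106.2, 102.4, 129.7, 112.6 and 124.7 CPM, and 3 of these libraries lay within the range of the controls. After 1 h of Bic it was 158.8, 126.1, 182.1, 180.9 and 185.2 CPM, above every control library. After 2 h of Bic it reached 746.6, 569.2, 634.6, 674.2 and 649.4 CPM, a mean of 654.8 ± 64.4 CPM (SD, n = 5) and 6.00 times the control mean. Most of its gain over the control came between 1 and 2 h.

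On the log2 scale, Homer1 differed from the control by 0.08 ± 0.09 (SE) after 0.5 h, by 0.61 ± 0.09 after 1 h and by 2.57 ± 0.09 after 2 h of Bic. It was higher than the control of the same preparation in 4, 5 and 5 of 5 preparations, respectively. From 1 to 2 h of Bic the log2 difference was 1.97 ± 0.08, in 5 of 5 preparations and without overlap of the libraries.

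In the SP, Homer1 stood at 121.2, 144.0, 171.6, 173.0 and 154.8 CPM with TTX, which overlapped the libraries of uninterrupted 1 h Bic. This passive effect, TTX against Bic of the same total duration, was -0.13 ± 0.09 (log2, SE), and 4 of 5 preparations were lower with TTX. With TTX/NMDA, Homer1 stood at 89.5, 84.9, 104.9, 89.95 and 113.8 CPM, below every TTX library. The active effect, TTX/NMDA against TTX alone, was -0.67 ± 0.09 (log2, SE), a change within preparations of -36.1 ± 9.54% (SD, n = 5). The total effect of TTX/NMDA against 1 h of Bic was -0.79 ± 0.09 (log2, SE). Homer1 then lay in the range of the controls and below, with a mean of 96.6 ± 12.2 CPM (SD, n = 5), lower than the control of its own preparation in 5 of 5 preparations although the ranges overlapped (log2 difference -0.18 ± 0.09, SE).

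In the LP, Homer1 with TTX stood at 846.1, 757.3, 857.3, 792.2 and 944.9 CPM. These were the highest values of the gene in each of the 5 preparations, and all of them lay above the 5 libraries of uninterrupted 2 h Bic. The passive effect was therefore positive, at 0.35 ± 0.07 (log2, SE), with a change within preparations of 28.9 ± 13.3% (SD, n = 5). Compared with the level at 1 h of Bic, when TTX was added, Homer1 was 5.04 times higher 1 h later in spite of TTX (log2 difference 2.33 ± 0.08, SE).

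With TTX/NMDA in the LP, Homer1 stood at 142.0, 247.3, 271.8, 180.7 and 209.7 CPM, far below every library of TTX alone or of 2 h Bic. The active effect was -2.01 ± 0.11 (log2, SE), a change within preparations of -74.8 ± 6.78% (SD, n = 5), and the total effect was -1.65 ± 0.11. The mean of 210.3 ± 51.7 CPM was 1.93 times the control mean, and 5 of 5 preparations were above every control library. Against the level at 1 h of Bic, the log2 difference was 0.32 ± 0.11 (SE), with 3 of 5 preparations higher and overlapping ranges. Of the gain over control reached after 2 h of Bic, 19.5 ± 10.5% (SD, n = 5) was present with TTX/NMDA, against 135 ± 16.5% with TTX alone.

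With TBOA in the LP, Homer1 stood at 451.2, 438.3, 420.8, 457.2 and 455.9 CPM, between the libraries of TTX/NMDA and those of 2 h Bic without overlap with either. The spillover effect, TBOA against 2 h of Bic, was -0.55 ± 0.07 (log2, SE), a change within preparations of -31.6 ± 6.03% (SD, n = 5), and 62.1 ± 6.45% of the gain over control was present.

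The active effect on Homer1 was deeper in the LP than in the SP, by a log2 difference of -1.33 ± 0.16 (SE) in 5 of 5 preparations. The passive effects lay apart by 0.48 ± 0.13 (log2, SE), more positive in the LP in 5 of 5 preparations. Ordered by mean level, Homer1 ran from SP TTX/NMDA over the control, 0.5 h Bic, SP TTX, 1 h Bic and LP TTX/NMDA to LP TBOA, 2 h Bic and LP TTX. Neighbours up to LP TTX/NMDA overlapped in their libraries, whereas the steps from LP TTX/NMDA to LP TBOA, to 2 h Bic and to LP TTX did not.

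**Figure D2:**
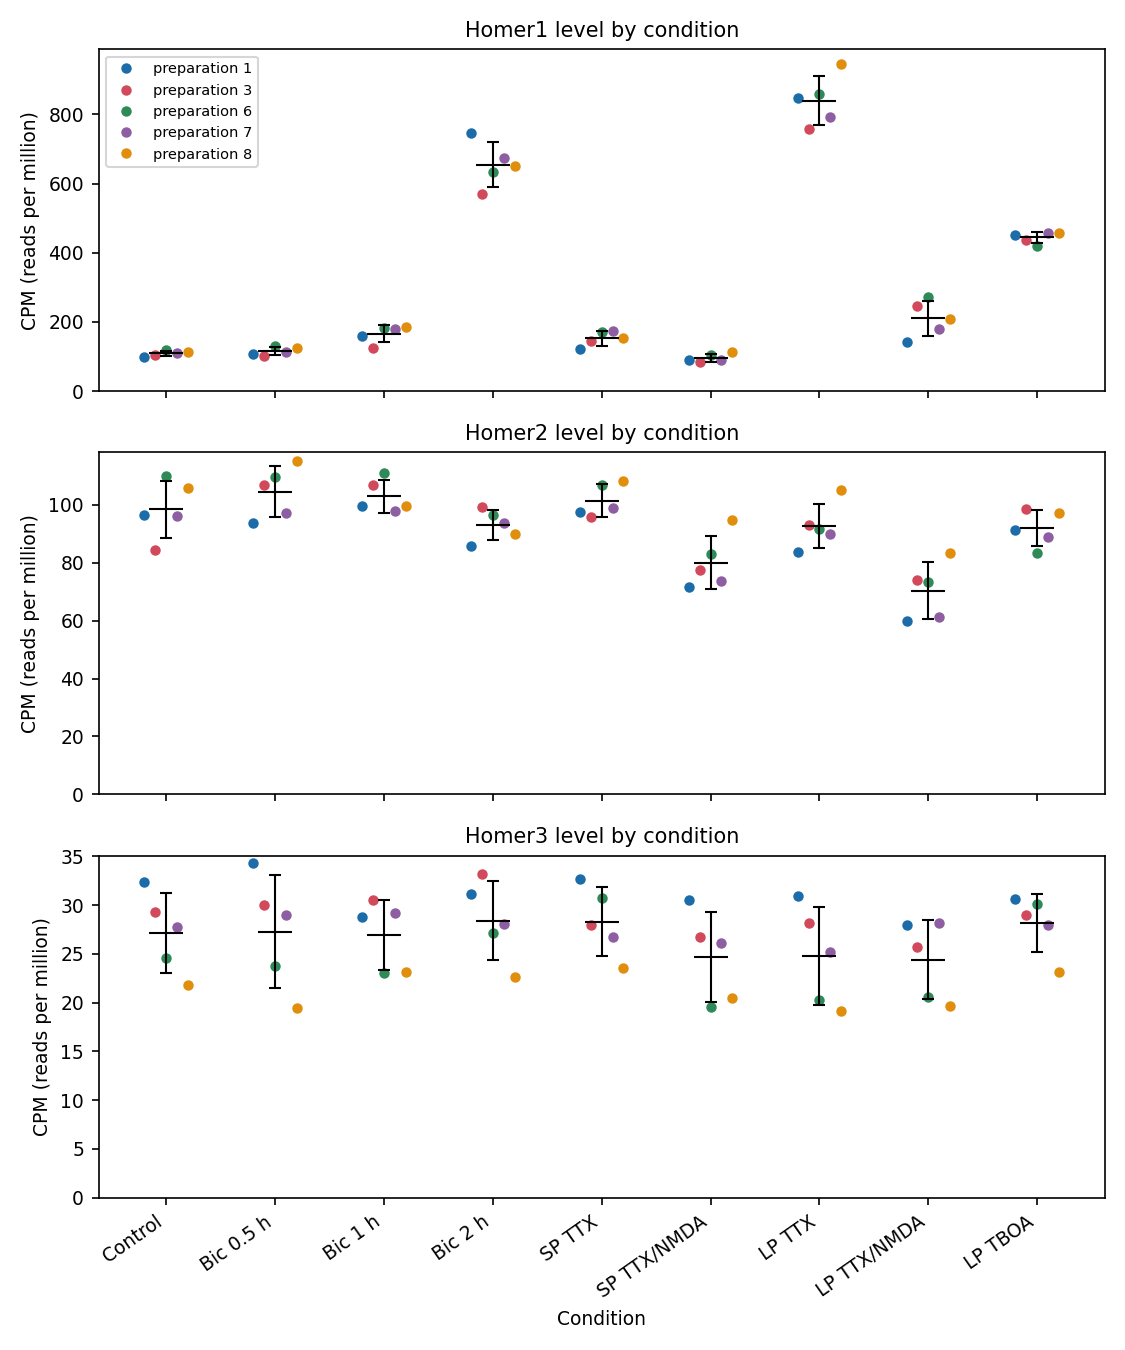
Levels of Homer1, Homer2 and Homer3 in CPM (y axes, linear, from 0; each panel with its own scale) in the 9 conditions (x axis), with 1 point per library coloured by culture preparation and the mean ± SD (n = 5) in black. Homer1 ran from 84.9 to 945 CPM over the 45 libraries, Homer2 from 59.7 to 115 CPM, with its lowest means in the TTX/NMDA conditions, and Homer3 from 19.2 to 34.3 CPM.

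The summed markers of other cell types also differed between LP TTX/NMDA and LP TTX. The 5 astrocyte markers summed to 651 to 1340 CPM with TTX/NMDA and 368 to 755 CPM with TTX, and 5 of 5 were called higher, as were 11.6% of all genes tested. The excitatory neuron markers Slc17a7, Slc17a6 and Camk2a summed to 892 to 1350 CPM and 1920 to 2480 CPM, respectively, and 3 of 3 were called lower, as were 11.8% of all genes. The 4 general neuronal markers summed to 3190 to 3500 CPM and 3960 to 4210 CPM. Called higher were also 3 of 5 oligodendrocyte lineage, 2 of 4 endothelial or fibroblast, 1 of 3 inhibitory and 1 of 4 microglia markers, and the endothelial marker Cldn5 had a median level of 0. The part of these shifts in the changes of the Homer genes was not tested, and in such bulk libraries fewer cells of a type and less RNA per cell cannot be told apart.

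Homer2, a mainly long, constitutive member of the family, was not called along the Bic series and was called lower with NMDA. Its level in the control was 96.4, 84.4, 109.7, 96 and 105.6 CPM, and it had means between 92.9 and 104.5 CPM after 0.5, 1 and 2 h of Bic. Against the control its log2 differences were 0.09 (95% interval -0.09 to 0.26), 0.06 (-0.10 to 0.22) and -0.10 (-0.26 to 0.07), with edgeR adjusted p-values of 0.85, 0.834 and 0.513, in comparisons where 0.289, 1.16 and 9.02% of all genes tested were called. From 1 to 2 h of Bic it was lower in 5 of 5 preparations, by a log2 difference of -0.16 (95% interval -0.29 to -0.03) that was not called (edgeR adjusted p = 0.228) but was called with the preparation as a block (-0.15, edgeR adjusted p = 0.00929). Of all genes, 5.33% were called in this comparison without the block, and 3607 of 15330 genes with it.

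With TTX/NMDA in the SP, Homer2 stood at 71.5, 77.3, 83.0, 73.5 and 94.5 CPM, against 97.4, 95.8, 106.8, 98.8 and 108.0 CPM with TTX. The libraries did not overlap, and the active effect of -0.35 ± 0.07 (log2, SE) was called (edgeR adjusted p = 0.00275), where 3.32% of all genes tested were called lower. The total effect in the SP was -0.37 ± 0.07 (edgeR adjusted p = 0.00124; 3.41% of genes called lower). Relative to 0.5 h of Bic, the time at which TTX/NMDA was added, Homer2 was lower by a log2 difference of -0.40 ± 0.08 (edgeR adjusted p = 0.00107; 2.58% of genes called lower). Against the untreated control the difference was -0.31 ± 0.09, with edgeR adjusted p = 0.0758, where 1.27% of genes were called. With the preparation as a block, the log2 difference was -0.32 with edgeR adjusted p = 0.00979, where 1703 of 15373 genes were called.

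With TTX/NMDA in the LP, Homer2 stood at 59.8, 74.2, 73.1, 61.3 and 83.5 CPM, against 83.8, 92.9, 91.5, 89.9 and 105.0 CPM with TTX. These ranges did not overlap either, and the active effect was -0.41 ± 0.08 (log2, SE; edgeR adjusted p = 0.000345), a change within preparations of -24.2 ± 5.6% (SD, n = 5). As 11.8% of all genes tested were called lower in this comparison, such a call was common. The total effect was -0.42 ± 0.08 (edgeR adjusted p = 9.95e-05; 11.1% of genes called lower). Homer2 was also lower than in the control (-0.49 ± 0.09, edgeR adjusted p = 0.000132; 8.55% of genes called lower) and than at 1 h of Bic (-0.56 ± 0.08, edgeR adjusted p = 9.42e-07; 10.2% of genes called lower).

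TTX alone and TBOA gave no call for Homer2. The passive effects were -0.03 (95% interval -0.16 to 0.11) in the SP and -0.01 (-0.14 to 0.12) in the LP, with edgeR adjusted p-values of 0.974 and 0.925, where 0.268 and 4.65% of genes were called. LP TTX lay below 1 h of Bic by a log2 difference of -0.16 ± 0.07 (edgeR adjusted p = 0.178; 2.85% of genes called lower), which the block called (-0.17, adjusted p = 0.0249; 2234 of 15540 genes called lower). The spillover effect was -0.004 (95% interval -0.13 to 0.12; edgeR adjusted p = 0.983; 0.602% of genes called). The active effect of the LP minus that of the SP was -0.04 for Homer2 (95% interval -0.28 to 0.19; edgeR adjusted p = 1), where 2.57% of genes were called in either direction.

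Homer3, also a constitutive member with a coiled coil, was called in 0 of the 22 comparisons of 2 conditions by edgeR, 2 of which had an unadjusted p under 0.05, and in 0 by DESeq2. With the preparation as a block, 3 were called. Without the block, the share of all genes that edgeR called ran from 0.268% for the SP passive to 23.3% for the LP active effect. Its level varied more between preparations than between conditions. The SD of the 5 preparation means was 3.79 CPM and that of the 9 condition means 1.63 CPM. Preparation 8 was lowest in 7 of the 9 conditions, with a mean of 21.4 CPM, and preparation 1 was highest in 6, with a mean of 31 CPM. In the control Homer3 stood at 32.4, 29.3, 24.6, 27.8 and 21.8 CPM, and after 2 h of Bic at 31.1, 33.2, 27.1, 28.1 and 22.6 CPM, a log2 difference of 0.06 (95% interval -0.15 to 0.26; edgeR adjusted p = 0.797).

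The active effects on Homer3 were -0.21 (95% interval -0.41 to -0.01; edgeR adjusted p = 0.334) in the SP, with 5 of 5 preparations lower, and -0.03 (-0.26 to 0.21; adjusted p = 0.917) in the LP, with 2 of 5 lower. In the LP it was lower with TTX, at 30.95, 28.1, 20.3, 25.2 and 19.2 CPM, than after 2 h of Bic in 5 of 5 preparations, a passive effect of -0.20 (95% interval -0.42 to 0.01) with edgeR adjusted p = 0.365. With the preparation as a block this effect was called (-0.23, edgeR adjusted p = 0.00429), as were the total effect in the LP (-0.23 with adjusted p = 0.112, and with the block -0.21 with 0.0157) and the difference of SP TTX/NMDA from 0.5 h of Bic (-0.16 with 0.533, and with the block -0.15 with 0.039). In these comparisons the block called 2528 of 15570, 4100 of 15947 and 2651 of 15321 genes lower, respectively. The spillover effect was -0.002 (95% interval -0.18 to 0.17; edgeR adjusted p = 0.994). The LP minus SP differences of Homer3 were 0.20 (-0.15 to 0.54; edgeR adjusted p = 0.713) for the active and -0.28 (-0.58 to 0.03; adjusted p = 0.913) for the passive effect, where 0.256% of genes were called for the latter.

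To compare the members with each other, CPM were divided by the exonic length in kb (RPKM). On this scale the control cultures held 9.11 ± 0.65 RPKM of Homer1, 7.80 ± 0.78 of Homer2 and 7.89 ± 1.20 of Homer3 (SD, n = 5), so that Homer1 made up 36.7 ± 2.66%, Homer2 31.4 ± 2.78% and Homer3 31.8 ± 4.80% of their sum. After 2 h of Bic, Homer1 made up 77.7 ± 2.76% of the family and the sum was 70.3 ± 5.03 RPKM, against 24.8 ± 0.69 RPKM in the control. With TTX in the LP the share of Homer1 was 82.7 ± 1.97%. With TTX/NMDA it was 57.4 ± 6.86%, from 48.0 to 65.9% over the preparations, and the sum was 30.2 ± 4.09 RPKM. With TBOA the share was 70.6 ± 1.40%. The exonic length joins the exons of all annotated transcripts of a gene, and the shares depend on it. Any form of Homer1 with fewer exonic bases, short or long, would have its level understated by this length. Homer1-204, which ends early, has more annotated exonic bases than Homer1-201, which runs to the last exons.

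Gm47088 had few reads and a different order of conditions. It had 0 reads in all 5 control libraries, 0, 5, 1, 1 and 1 after 0.5 h of Bic, and 3, 8, 3, 7 and 5 after 1 h. After 2 h of Bic it had 1, 0, 0, 1 and 0 reads, although Homer1 was then at 6.00 times its control level. So reads on Gm47088 were most frequent within the Bic series at 1 h, with 26 reads over the 5 libraries against 2 at 2 h. The ratio of these levels was 13.1, with a 95% counting interval of 3.27 to 114, and counting intervals here are exact binomial (Clopper-Pearson) and cover counting error alone. Against the control, whose 0 reads allow up to 0.0227 CPM (3 reads over the group), the level at 1 h was at least 8.38-fold higher. Without preparation 7 this bound was 4.7-fold, on fewer reads over the same floor, and without preparation 1 the ratio of 1 to 2 h of Bic was 23.

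In the SP, Gm47088 had 2, 4, 3, 1 and 3 reads with TTX and 7, 10, 5, 7 and 7 with TTX/NMDA. Its CPM with TTX/NMDA was 3.82 times that with TTX (95% counting interval 1.98 to 7.86) and higher in 5 of 5 preparations without overlap. It was close to that at 1 h of Bic, at a ratio of 1.24 (95% counting interval 0.725 to 2.13, and 0.986 without preparation 6).

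In the LP, Gm47088 had 0 reads in all 5 TTX libraries, and 70, 84, 13, 42 and 43 reads with TTX/NMDA. Every library of LP TTX/NMDA lay above every other library of the series in CPM, with 1.69, 1.66, 0.905, 1.88 and 1.19 CPM. Against LP TTX, whose floor of 3 reads over the group corresponds to 0.0155 CPM, the level was at least 98.5-fold higher, and against the control at least 67.2-fold. Without preparation 7, with fewer reads over the same floor, these bounds were 64.9-fold and 40.2-fold. It was 8.02 times that at 1 h of Bic (95% counting interval 5.34 to 12.5), the time at which TTX/NMDA was added, and 6.49 times that of SP TTX/NMDA (4.56 to 9.48). With TBOA, Gm47088 had 26, 14, 2, 2 and 2 reads, higher than after 2 h of Bic in 5 of 5 preparations. The level with TTX/NMDA was 5.88 times that with TBOA (95% counting interval 4.28 to 8.24).

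**Figure D3:**
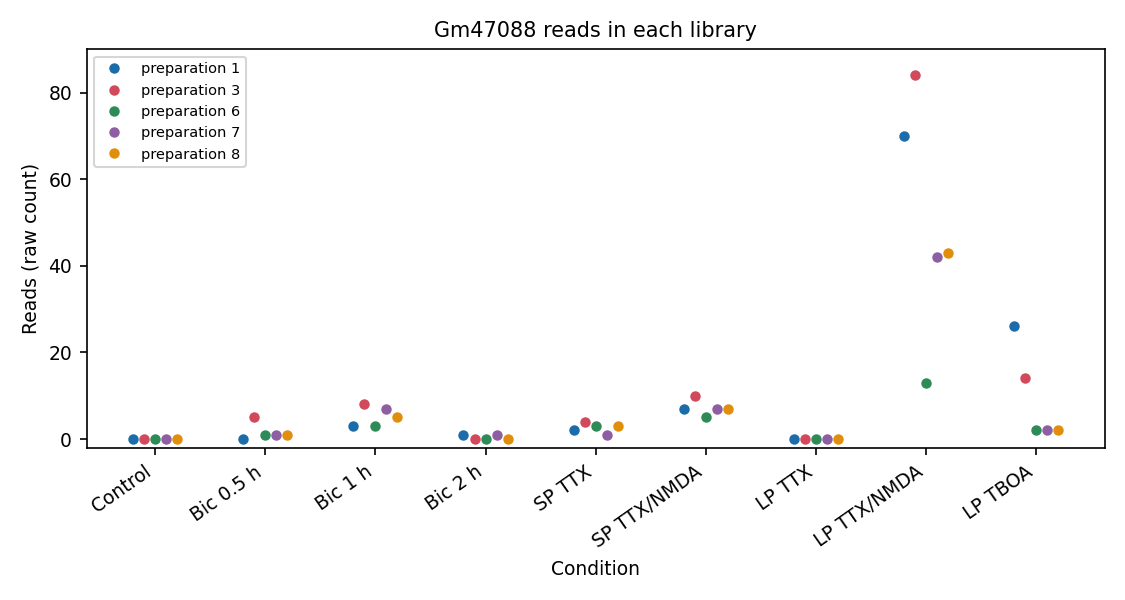
Raw reads on Gm47088 (y axis, linear) in each of the 45 libraries by condition (x axis), coloured by culture preparation. All 5 control and all 5 LP TTX libraries are at 0, and the 5 LP TTX/NMDA libraries hold 13 to 84 reads.

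Homer1 and Gm47088 therefore stood at opposite ends in the pair of LP conditions with TTX. Homer1 had its highest levels and Gm47088 no read with TTX, and with TTX/NMDA Homer1 was far lower while Gm47088 was highest. For every 10000 reads on Homer1 there were 75.9 ± 34.9 reads on Gm47088 (SD, n = 5) in LP TTX/NMDA, 26.3 ± 11.9 in SP TTX/NMDA, 12.8 ± 5.97 after 1 h of Bic, 4.93 ± 3.61 with TBOA and 0.245 ± 0.348 after 2 h of Bic. Per exonic length, the ratio in LP TTX/NMDA was 555 to 10000. Over the 45 libraries, the log2 CPM of the 2 genes had a Pearson r of -0.271, a value that rests on few reads of Gm47088.

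Gm47075, the other TEC model in the same Homer1 intron, starts 8284 bases after the RefSeq start, nearer to it than Gm47088. It had 2 reads over the 5 controls, 40 after 0.5 h, 70 after 1 h and 25 after 2 h of Bic. In the LP it had 3, 4, 2, 8 and 6 reads with TTX and 56, 111, 20, 24 and 42 with TTX/NMDA, without overlap, a log2 difference of 3.57 ± 0.30 (SE; edgeR adjusted p = 2.44e-10, with 11.6% of all genes called higher). In the SP the active effect was 1.94 ± 0.36 (edgeR adjusted p = 0.000526; 0.956% of genes called higher), and spillover in the LP was 1.72 ± 0.40 (adjusted p = 0.0276; 0.0536% called higher). Both models thus had more reads with TTX/NMDA than with TTX in either protocol. Both lie in intronic sequence on the strand of Homer1, and reads from unspliced Homer1 RNA and from a separate transcript cannot be told apart by these counts.

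Such models were counted across the genome as background. Of 1458 TEC models in the count table that lie in a protein-coding gene on its own strand and share no exonic base with it, 1261 were tested for the active effect in the LP. Of these, 310 (24.6%) were called higher and 21 (1.67%) lower, where 11.6% and 11.8% of all genes were. Their median log2 difference was 1.01 against 0.11 over all genes tested. In the SP, 32 of 1173 (2.73%) were called higher in the active comparison and 3 lower, where 0.956% and 3.32% of all genes were. For spillover, 3 of 1142 were called higher and 1 lower, where 0.0536% and 0.549% of all genes were. After 2 h of Bic, 55 of 1089 (5.05%) were called higher, where 4.24% of all genes were.

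Gm47155, a TEC model that starts 5653 bases after the end of Homer1 on the same strand and that was chosen after its values were seen, had 13.8 ± 1.59 CPM in the control and 11.7 ± 0.67 CPM after 2 h of Bic (SD, n = 5; log2 difference -0.26 ± 0.10, edgeR adjusted p = 0.114). Its active effect in the LP was 0.13 ± 0.12 (edgeR adjusted p = 0.442), and its total effect in the LP was called higher (0.28 ± 0.10, edgeR adjusted p = 0.0454; 3768 of 32243 genes called higher). Of the nearest expressed protein-coding genes, Tent2, before Homer1 and on the opposite strand, was called higher in the active comparison of the LP (log2 difference 0.38 ± 0.11, edgeR adjusted p = 0.0109; 11.6% of genes called higher) and lower after 2 h of Bic (-0.48 ± 0.11, adjusted p = 0.00398; 9.02% of genes called in either direction). Jmy, after Homer1 and on the opposite strand, was called higher after 2 h of Bic (0.33 ± 0.10, adjusted p = 0.0201; 4.24% of genes called higher) and lower for the active effect in the LP (-0.36 ± 0.07, adjusted p = 0.000279; 11.8% of genes called lower). Inside Homer2 lie Gm44570 on the opposite strand, with 0 to 40 reads per library and adjusted p-values of at least 0.199 in the 12 comparisons of the Bic series and the protocols, and the small nuclear RNA gene Gm26149, listed at 0 reads in every library. The counting was strand-specific.

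Most of the genes listed for proteins that Homer binds were called lower with TTX/NMDA than with TTX in the LP. A list of 14 such genes had 1 called higher and 11 called lower for the active effect in the LP. Their median log2 difference was -0.52 against 0.11 over all genes tested, of which 11.6% were called higher and 11.8% lower. Among the 16399 genes that passed a filter on low counts (filterByExpr), 4090 were called higher and 3736 lower. This list and those below were chosen with earlier results of these data known. Grm5, the group I metabotropic glutamate receptor mGluR5, fell from 446.2 ± 20.5 to 260.8 ± 42.99 CPM (SD, n = 5; log2 difference -0.78 ± 0.08, SE, edgeR adjusted p = 1.62e-08). Itpr1, the main neuronal inositol trisphosphate receptor, fell by 0.76 ± 0.08 (log2, SE), and Ryr2, a ryanodine receptor that releases calcium from the endoplasmic reticulum, had a log2 difference of -0.69 ± 0.08 (edgeR adjusted p = 1.52e-08 and 1.64e-07). Shank3, a scaffold that Homer links to receptors, fell by 0.63 ± 0.07, and Trpc1, a cation channel, and Agap2, the gene of the PIKE proteins, had log2 differences of -0.62 ± 0.08 and -0.57 ± 0.07 (edgeR adjusted p at most 4.51e-07 for each). The member called higher, named after its values were seen, was Itpr2, the inositol trisphosphate receptor abundant in astrocytes, at 5.19 ± 1.05 CPM with TTX and 10.3 ± 2.39 CPM with TTX/NMDA (log2 difference 0.99 ± 0.15, edgeR adjusted p = 7.69e-06).

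In the SP, 9 of these 14 genes were called lower for the active effect, with a median of -0.27 (log2), where 3.32% of all genes were called lower. After 2 h of Bic, 4 were called higher (4.24% of all genes), namely Shank1, Shank3, Ryr2 and Agap2, with log2 differences from 0.26 to 0.40. For spillover, edgeR called 0 of the 14, with 1 higher and 2 lower at an unadjusted p under 0.05, and DESeq2 called 2 lower, where edgeR called 0.549% of all genes lower. With the preparation as a block, Shank3 was called lower (-0.23, edgeR adjusted p = 0.0267), as were 348 of 15628 genes. For the passive effect in the LP, Shank1 and Shank3 were called lower (-0.35 ± 0.07 and -0.30 ± 0.06, edgeR adjusted p = 0.00287 and 0.00358; 1.62% of genes called lower), the comparison in which Homer1 was higher. With the block, 4 of the 14 were called lower and 2 higher, as were 2528 and 2450 of 15570 genes.

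Of 10 genes of group I mGluR and Gq signalling, 1 was called higher and 8 lower for the active effect in the LP (median -0.50, log2), where 11.6% of all genes were called higher and 11.8% lower. Grasp, whose product Tamalin binds group I mGluRs, stood out in that it also followed Bic. It stood at 19.1 ± 3.21 CPM in the control and 69.3 ± 11.98 CPM after 2 h of Bic (SD, n = 5; log2 difference 1.85 ± 0.11, edgeR adjusted p = 3.13e-15). It fell from 58.8 ± 7.76 CPM with TTX to 30.2 ± 3.65 CPM with TTX/NMDA in the LP (-0.97 ± 0.09, edgeR adjusted p = 2.01e-09), and was called lower for spillover too (-0.58 ± 0.10, adjusted p = 0.000559), the single call among the 10, where 0.549% of all genes were called lower. Unlike Homer1, its passive effect in the LP was negative, at -0.25 ± 0.09 (edgeR adjusted p = 0.142, and 0.000793 with the preparation as a block, which called 2528 of 15570 genes lower). The protein kinase C genes Prkca and Prkcb, Plcb1, the phospholipase C of group I mGluRs in forebrain neurons, and Ncdn (neurochondrin) fell, with log2 differences of -0.68, -0.62, -0.49 and -0.60. The member called higher was Plcb3, named after its values were seen, at 0.75 ± 0.16 (log2, SE; edgeR adjusted p = 0.000528). Plcb4, another phospholipase C, had a log2 difference of 0.175 ± 0.074 there (edgeR adjusted p = 0.0883) that was called with the preparation as a block (0.20, adjusted p = 0.00411; 5510 of 16399 genes called higher). It was also called higher for the active effect in the SP (0.28 ± 0.08, edgeR adjusted p = 0.0312; 0.956% of genes called higher).

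Of 8 other scaffold genes of the postsynaptic density, 6 were called lower for the active effect in the LP, where 11.8% of all genes were. Dlg2 (PSD-93) fell from 686.7 ± 53.9 to 373.4 ± 43.3 CPM (SD, n = 5; log2 difference -0.89 ± 0.08, edgeR adjusted p = 3.63e-10) and Dlgap2 fell by 0.81 ± 0.08 (adjusted p = 3.90e-09). Dlg4 (PSD-95), Dlg3, Dlgap1 and Dlgap3 fell by smaller amounts, with log2 differences from -0.32 to -0.27. After 2 h of Bic, where 9.02% of all genes were called in either direction, edgeR called 0 of the 8, as did DESeq2, and 0 had an unadjusted p under 0.05. The block called Dlg1 higher (0.16, edgeR adjusted p = 0.0403), as it did 2195 of 15269 genes. For spillover (0.602% of all genes called), edgeR and DESeq2 called 0, and 2 were lower at an unadjusted p under 0.05.

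Of the 8 other genes with an EVH1 domain, the Ena/VASP, WASP and Spred genes, 5 were called lower and 1 higher for the active effect in the LP, where 11.8% of all genes were called lower and 11.6% higher. Spred1 and Spred2, inhibitors of Ras-MAPK signalling, fell by 0.42 ± 0.07 each (log2, SE), and Spred3, Wasl and Enah had log2 differences of -0.35 ± 0.10, -0.28 ± 0.08 and -0.23 ± 0.07, whereas Evl rose by 0.20 ± 0.06 (edgeR adjusted p = 0.019). Spred1 was also called higher with TTX than after 2 h of Bic (passive effect 0.41 ± 0.06, edgeR adjusted p = 3.7e-05; 3.03% of genes called higher), the single call of this list in that comparison. The block called 3 of the list higher and 1 lower there, as it did 2450 and 2528 of 15570 genes. Vasp was called higher after 2 h of Bic (0.58 ± 0.09, edgeR adjusted p = 5.45e-06; 4.24% of genes called higher).

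**Figure D4:**
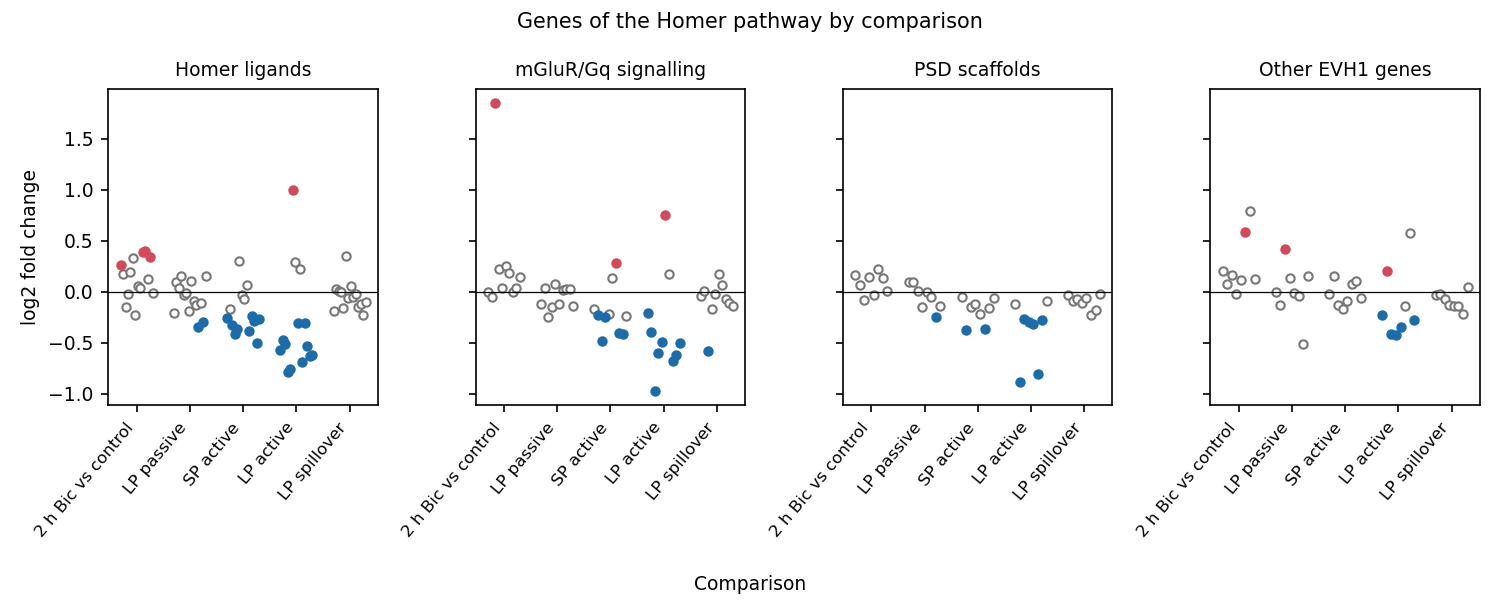
Log2 fold changes (y axis) of the genes of the 4 lists in 5 comparisons (x axis), 1 point per gene. Filled red and blue points were called higher and lower, and open points were not called by edgeR. In the LP active comparison, 30 of the 40 genes are blue, against 11.8% of all genes tested. Among the 16399 genes that passed a filter on low counts, 3736 were called lower.

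The genes whose log2 CPM followed Homer1 most closely over the 45 libraries, among 13592 genes with a mean of at least 1 CPM, were Zdbf2 (Pearson r = 0.985), Peli1 (0.983), Btaf1 (0.982), Frmd6 (0.979) and Arih2 (0.976). Zdbf2 stood at 65.2 ± 14.2 CPM in the control, 343 ± 32.4 after 2 h of Bic, 425 ± 42.4 with TTX in the LP, 120 ± 22 with TTX/NMDA and 280 ± 28.3 with TBOA (SD, n = 5), the order of Homer1. Peli1 had 54.9 ± 6.30, 139 ± 5.19, 159 ± 6.69, 67.4 ± 12.8 and 110 ± 8.09 CPM in the same conditions. The libraries share their preparations and the controls, so these values describe likeness of pattern alone. Gm47088 was most like Cers2 (Pearson r = 0.833), Npc1 (0.827) and Kat2b (0.799), which had a far narrower range. Npc1, for instance, stood at 26.1 ± 1.79 CPM with TTX and 38.9 ± 5.79 CPM with TTX/NMDA in the LP.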

How the data were processed

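RNA was measured in 45 libraries, 5 for each of 9 conditions. The authors prepared strand-specific poly-A libraries, sequenced them single-end with 75 cycles, mapped them to GRCm38 (Ensembl release 94) using STAR 2.5.4b, and counted them per gene with featureCounts (version 1.6.5), without multi-mapping reads or reads that overlap several genes. The deposited values are these raw read counts. The labels number 5 culture preparations, each of which gave 1 library per condition.

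Of 54532 gene identifiers, 54495 matched GENCODE M21 (Ensembl release 96, GRCm38), which gave symbols, positions and exonic lengths. Comparisons used edgeR (version 4.0.16), quasi-likelihood test, TMM, on the libraries of the conditions compared, for every gene that had a read in 1 or more of them (the filter of the authors' DESeq2 analysis), with Benjamini-Hochberg adjustment over all genes tested. Genes with an adjusted p-value under 0.05 were called. CPM and RPKM were computed here from the counts. LP minus SP differences were contrasts over 4 conditions. Low counts limit Gm47088, for which no fitted fold change is given.

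Preparation numbers occur once per condition and pair the libraries. Same-numbered libraries deviated together from their condition means, with mean correlations across 13592 genes of 0.26 to 0.55 over the comparisons and of -0.29 to 0.72 for single pairs. A fit with the preparation as a block over genes passing filterByExpr was the paired alternative. It tested 14783 to 16663 genes per comparison, so shares of genes called without the block are not the background of its calls. Other alternatives were DESeq2 (version 1.42.0), its size factors, the filter alone, a fit of all 45 libraries and leaving out each preparation. The fits were tested on simulated data.

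The members and gene lists were chosen with earlier results of these data known. Named were the 4 genes, up to 6 called genes with the smallest p-value per list in the LP active comparison, models inside the Homer genes, the nearest expressed neighbours of Homer1 and the genes most like Homer1 and Gm47088. A listed gene that this rule names is not reported here by name.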

Additional observations from a re-analysis of the deposited data

Results flagged for a closer look

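Of 34 pairs of a gene and a condition with any reads, 2 had a library far from the other 4, both for Gm47088 and both in preparation 3. Chance alone sets about 1 in 20 such groups apart. After 0.5 h of Bic, preparation 3 had 0.233 CPM of Gm47088, from 5 reads, where the other preparations had 0 to 0.0613 CPM. With TTX in the SP, it had 0.164 CPM, from 4 reads, where the others had 0.0414 to 0.0601 CPM.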

How the results depend on the processing

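For Homer1, all 240 alternative values in the 24 contrasts kept their direction and moved by less than the SD between preparations. The calls of Homer2 in the SP and LP active and total comparisons held in every alternative. The cause of the changes listed here was not tested. The replicate block called Homer2 lower from 1 to 2 h of Bic (-0.148; values in this paragraph are log2 fold changes) and Homer3 lower for the LP passive (-0.226) and LP total (-0.21) effects, and it added 3 calls against the control, 0.5 h or 1 h of Bic that stand beside those results. It changed no other call of Homer2 or Homer3 and, among the listed genes, moved calls in both Bic and protocol comparisons. Homer2 in SP TTX/NMDA against the control was also called by the fit of all 45 libraries (-0.299), by DESeq2 (-0.317) and without preparation 3 (-0.338) or 8 (-0.361), and in LP TTX against 1 h of Bic without preparation 8 (-0.221). Leaving out preparation 8 also called Homer3 for the LP total effect, at -0.227 in a range of -0.263 to -0.16 over the preparations left out. Directions turned in 14 of the results for Homer2 and Homer3, none of which was called in any setting. Leaving out 1 preparation gave ranges for Homer2 of -0.008 to 0.107 (1 h Bic against control), -0.055 to 0.024 (1 against 0.5 h Bic), -0.06 to 0.006 (SP passive), -0.065 to 0.017 (LP passive), -0.037 to 0.038 (spillover) and -0.007 to 0.019 (LP minus SP passive). For Homer3 they were -0.013 to 0.037 (0.5 h Bic), -0.036 to 0.026 (1 h Bic), -0.072 to 0.038 (1 against 0.5 h Bic), -0.007 to 0.123 (SP passive), -0.074 to 0.011 (LP active), -0.043 to 0.043 (spillover), -0.027 to 0.094 (SP TTX against 0.5 h Bic) and -0.006 to 0.109 (TBOA against 1 h Bic). The filter on low counts gave 0.0 for Homer3 in the LP active comparison.

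Of 240 alternative counts of called genes, 192 stayed within 1.5 times the main count. With the block, the counts rose from 357 to 618 (1 h Bic), 2789 to 4479 (2 h Bic), 1652 to 3607 (2 against 1 h Bic), 1379 to 2548 (SP active), 1351 to 4217 (SP total), 1485 to 4978 (LP passive), 191 to 417 (spillover), 398 to 1703 and 992 to 4959 (SP TTX/NMDA against control and 0.5 h Bic), 2292 to 4527 (LP TTX against 1 h Bic), 900 to 4165 (LP minus SP active) and 88 to 323 (LP minus SP passive). DESeq2 called 2335 genes for LP passive, 315 for spillover, 697 and 1718 for those SP TTX/NMDA comparisons, and 1632 and 181 for LP minus SP active and passive. The filter and the fit of all libraries called 104 and 106 for spillover and 35 and 54 for SP passive (main count 85), and the filter 257 for SP TTX/NMDA against control. Without preparation 1, 918 genes were called for SP active, 801 for SP total and 489 for LP minus SP active. Without preparation 6 or 7, 928 and 909 were called for LP passive, and without preparation 8, 2068 for SP total. Without 1 preparation, spillover had 123 to 493 calls, SP passive 52 to 163, SP TTX/NMDA against control 246 to 793 and against 0.5 h Bic 499 to 1706. LP minus SP passive had 39 to 47 without preparation 1, 3, 6 or 7. Of the 5 genes most like Homer1, 3 were shared by condition means and 1 by rank correlation.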
